A study of Mus musculus with 16 samples.

Results

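The joint response of reprogramming fibroblasts to knockdown of *Wdr5*, *Brca1* or *Bard1* at day 3 was examined by setting the mean of the 3 knockdown groups, each with equal weight, against the non-targeting (nt) siRNA control. The comparison holds 8 of the 16 libraries of the series: 2 nt libraries and 6 knockdown libraries, 2 per siRNA target. All cells, controls included, were wild-type BL6 mouse embryonic fibroblasts (MEFs) at passage 2 that carried lentiviral vectors for the doxycycline-inducible reprogramming factors *Pou5f1*, *Sox2*, *Klf4* and *Myc* (the OSKM cassette) and for the rtTA activator. All were transfected with 40 nM of siRNA a day before doxycycline was added, and were kept in medium with LIF, ascorbic acid, a GSK3 inhibitor (CHIR) and an Alk5 (TGF-β receptor) inhibitor. The groups therefore differ only in the siRNA (nt, si*Wdr5*, si*Brca1* or si*Bard1*), and the 2 libraries of a group come from independent experiments. As models they are limited by incomplete depletion and by the use of pooled siRNAs. Since 2 nt libraries serve all 3 knockdowns, a property of those libraries and a response common to the knockdowns cannot be told apart.

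WDR5 is a shared subunit of the MLL/SET complexes that methylate lysine 4 of histone H3. BRCA1 and BARD1 form a ubiquitin ligase that acts in homologous recombination and at stalled replication forks. In the early phase of reprogramming, fibroblasts silence their mesenchymal program of actin stress fibers, matrix and TGF-β signaling, divide rapidly and switch on epithelial junction genes, a shift known as the mesenchymal-to-epithelial transition (MET). Pluripotency genes follow later and in few cells.

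The guide strands of the siRNAs listed for the 3 targets, 2 per gene, are shown because the pooled comparison joins cells that received different siRNAs, and a seed in common would be a feature shared by design. They are written 5′ to 3′ with the seed (bases 2 to 8) in capitals.
*Wdr5*, exon 3, chr2:27519355-27519373 (mm10, plus strand): cAUAGUUUggcuuaacugg
*Wdr5*, exon 7, across a splice junction, chr2:27520909-27525121 (plus strand): cACGGUUGaaaugaacggc
*Brca1*, exon 3, chr11:101535553-101535571 (minus strand): aAGGACAUugugaaggccc
*Brca1*, exon 4, chr11:101534000-101534018 (minus strand): aCUAAACCuugugcuuccc
*Bard1*, exon 3, chr1:71088167-71088185 (minus strand): uUGUCGGUuuaucuugagg
*Bard1*, exon 2, chr1:71089475-71089493 (minus strand): aGAAGAUGugcucacaucc
The target sites lie in coding sequence. The 6 guides have 6 distinct seeds, so none of their 15 pairs shares one. The pools held more siRNAs per gene than are listed, so this says nothing of the seeds not shown. The nt siRNA sequence is not used here.

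Levels are given as CPM, reads scaled to a common library size, back-transformed from the deposited log2 CPM, and include a small prior of about 2 reads. Library sizes at day 3 ran from 14198918 to 17393793 reads, and 3 reads, taken here as the floor, correspond to 0.156 to 0.221 CPM. Reads on a set of ribosomal RNA entries took a larger share in the nt libraries (0.350% and 0.162%) than in the knockdown libraries (0.00133% to 0.0635%). The entries searched were the 45S gene model *CT010467.1*, *Gm15564*, *Gm24187*, *Mir6236* and the mitochondrial *mt-Rnr1* and *mt-Rnr2*, so the share is not of 45S RNA alone. Of the knockdown libraries, si*Brca1* replicate 2 stood furthest from nt: over the genes called below, its median difference from the nt mean was 1.67 log2 units for the genes that rose and −2.02 for those that fell, against 0.91 to 1.40 and −0.73 to −1.21 in the other 5 libraries. Over all 14028 genes tested, the median pooled log2-fold change was −0.02.

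The targeted transcripts were examined first. *Wdr5* stood at 132 and 130.5 CPM in the nt libraries, 50.6 and 55.3 in si*Wdr5*, 74.3 and 68.9 in si*Brca1* and 96.6 and 91.9 in si*Bard1*. *Brca1* stood at 82.4 and 78.0 CPM in nt, 40.5 and 48.4 in si*Wdr5*, 37.5 and 19.4 in si*Brca1* and 57.8 and 66.1 in si*Bard1*. *Bard1* stood at 30.5 and 29.1 CPM in nt, 13.9 and 15.3 in si*Wdr5*, 14.4 and 9.07 in si*Brca1* and 18.0 and 20.8 in si*Bard1*. All 6 knockdown libraries lay below both nt libraries for each of the 3 transcripts, whichever gene was targeted. *Wdr5* and *Brca1* were lowest under their own siRNA, whereas *Bard1* was higher in both si*Bard1* libraries than in the other 4 knockdown libraries. The pooled log2-fold change was −0.89 for *Wdr5* (SE 0.08, adjusted p = 5.93e-06, limma with Benjamini-Hochberg adjustment over 14028 genes, as for all adjusted p-values here), −0.93 for *Brca1* (SE 0.18, adjusted p = 0.000976) and −1.01 for *Bard1* (SE 0.15, adjusted p = 0.000224). Each of these averages includes 1 knockdown aimed at that transcript and 2 that were not.

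**Figure D1:**
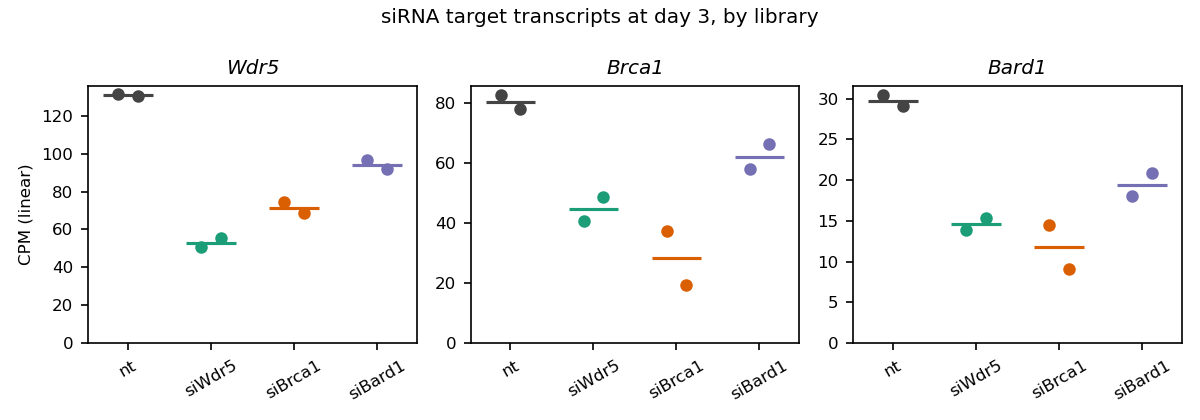
CPM (linear axis from 0) of *Wdr5*, *Brca1* and *Bard1* in each day 3 library, with points for the 2 libraries of a group and a line at their mean. All knockdown libraries lie below both nt libraries in every panel, and *Bard1* in si*Bard1* (18.0 and 20.8 CPM) lies above the other knockdowns.

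Across the transcriptome, 429 genes were higher and 311 lower in the pooled knockdowns at adjusted p < 0.05 and a log2-fold change beyond 1, which is 3.06% and 2.22% of the genes tested. At adjusted p < 0.05 alone, 2998 genes (21.4%) were higher and 2868 (20.4%) lower. The median change of the called genes was 1.23 among those that rose and −1.19 among those that fell. In 2798 genes (19.9%) all 6 knockdown libraries lay above both nt libraries, and in 3135 (22.3%) all lay below. Of the called genes, 400 of 429 and 296 of 311 were separated in this way. The calls rest on a large difference between these same libraries, so this is largely fixed by the choice. Just inside the fold threshold were *Rarres1* (1.001) and *Uchl4* (−1.0001), and just outside were *Slc16a9* (0.999) and *Sox2* (−0.996). The called genes that rose took up 1.80% and 2.11% of all CPM in the nt libraries and 3.99% to 6.73% in the knockdown libraries.

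The change had the sign of the average in all 3 single knockdowns for 424 of the 429 genes that rose and 310 of the 311 that fell, and exceeded 1 log2 unit in each of the 3 for 155 and 70 genes. These single comparisons share the nt libraries, so the counts describe how evenly the average was made up. The weakest change came from si*Bard1* in 306 of the genes that rose and 242 of those that fell, and the strongest from si*Brca1* in 294 and 243.

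Genes were also ranked by their change in the weakest of the 3 knockdowns, and contractile genes were prominent among the first 12 that rose. The rank asks for a large change in every knockdown and not for equal ones: 5 of the 12 rises and 2 of the 12 falls described next passed the F test between the knockdowns. *Acta1*, which encodes skeletal muscle actin, stood at 9.83 and 12.2 CPM in nt, 47.1 and 49.5 in si*Wdr5*, 87.2 and 105 in si*Brca1* and 54.2 and 38.1 in si*Bard1* (log2-fold change 2.44, SE 0.13, adjusted p = 2.39e-07). *Actg2*, the gamma actin of smooth muscle, went from 119.7 and 149 CPM in nt to between 394 and 881 CPM in the knockdown libraries. *Mylk*, the kinase that phosphorylates myosin light chains, stood at 25.4 and 28.7 CPM in nt and at 83.2 to 117 CPM in the knockdowns. The highest library of each of these 3 genes was si*Brca1* replicate 2. *Ctgf*, a matricellular protein and standard YAP target, rose from 29.8 and 42.2 CPM to between 118 and 417 CPM (log2-fold change 2.45, SE 0.18). In the annotation used here, 23.2% of its exon bases overlap a gene on the opposite strand, and whether counting used strand is not given in the sources used here.

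The other 8 genes of this group came from more varied families. They were *Nptx2*, a secreted pentraxin of synapses, *Parm1*, a mucin-like membrane protein, the aldehyde dehydrogenase *Aldh1a7*, the orphan receptor *Gpr149*, *Popdc2*, a membrane protein that binds cyclic AMP, *Casq2*, the calcium-storing calsequestrin of heart muscle, *Rgs5*, a regulator of G protein signaling known from pericytes, and *Mfap5*, a microfibril component. Their pooled log2-fold changes ran from 1.76 (*Rgs5*) to 2.24 (*Aldh1a7*), and *Aldh1a7* reads can be shared with its close relative *Aldh1a1*. *Popdc2*, *Casq2* and *Rgs5* had 6 to 18 reads in the nt libraries, and the last 2 never exceeded 42 reads, so their values are the least precise of this group. *Mfap5* went from 2.91 and 4.07 CPM in nt to 12.8 and 14.1 in si*Wdr5*, 14.0 and 17.3 in si*Brca1* and 10.7 and 10.7 in si*Bard1*.

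The 12 genes that fell with the largest change in the weakest knockdown were mostly low in expression, and several are known from neural or embryonic tissue. *Sowaha* stood at 12.3 and 12.6 CPM in nt and at 1.75 to 4.48 CPM in the 6 knockdown libraries (log2-fold change −2.32, SE 0.25, adjusted p = 1.46e-05). *Sall3*, a zinc finger relative of *Sall4*, stood at 6.34 and 6.52 CPM in nt and at 1.12 to 2.8 CPM in the knockdowns (log2-fold change −2.0, SE 0.30). *Dpysl5*, a collapsin response mediator of growing axons, stood at 40.1 CPM in both nt libraries, 11.9 and 12.4 in si*Wdr5*, 12.3 and 5.34 in si*Brca1* and 19.4 and 11.4 in si*Bard1*. The nt libraries of these genes almost coincide, while those of the knockdowns are spread more widely, si*Bard1* replicate 1 being the highest of them. *Sv2b*, a synaptic vesicle glycoprotein, fell by 2.01 log2 units, *Hpdl*, a dioxygenase-like protein, by 1.78, the pepsinogen *Pga5* by 1.82, *Sema5b*, a semaphorin, by 1.80, *Dmrtc2*, a DM domain factor, by 1.73, and *Sypl2*, a relative of synaptophysin, by 1.59.

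The remaining 3 genes of this group carry limits of their own. *Trh*, the precursor of thyrotropin-releasing hormone, had 85 and 63 reads in nt and 3 to 34 reads in the knockdown libraries, and its si*Brca1* libraries stood apart (34 and 3 reads). The homeobox gene *Nkx1-2* had 11 and 8 reads in nt and 2, 0, 0, 0, 1 and 3 reads in the knockdown libraries, so no fold is given for it. *Lars2*, the mitochondrial leucyl-tRNA synthetase, stood at 237 and 271 CPM in nt and at 21.0 to 109.5 CPM in the knockdowns (log2-fold change −2.44, SE 0.44, adjusted p = 0.000693). Its 6 knockdown libraries rank as their summed shares of the ribosomal RNA entries do. They run from si*Wdr5* replicate 1 (21.0 CPM, 0.00133% of reads on these entries) to si*Wdr5* replicate 2 (109.5 CPM, 0.0635%). By the *CT010467.1* model alone the order differs, with si*Bard1* replicate 1 lowest and si*Wdr5* replicate 1 next. The part of ribosomal RNA carry-over in the change of *Lars2* was not tested.

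**Figure D2:**
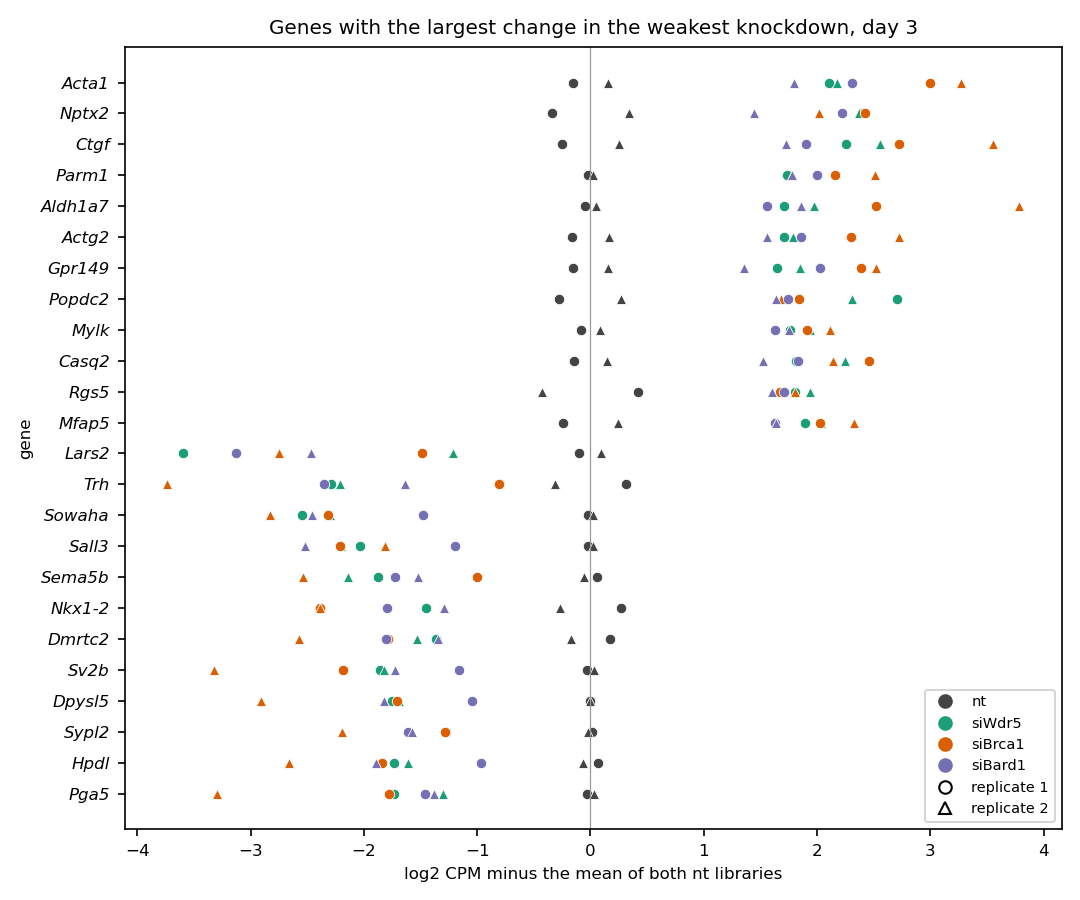
Each day 3 library's log2 CPM minus the mean of both nt libraries, for the 12 genes that rose and the 12 that fell with the largest change in the weakest knockdown; colors mark the siRNA and shapes the replicate. All knockdown libraries lie on 1 side of both nt libraries because the genes were chosen so. The 2 nt libraries lie about 0, their mean, and si*Brca1* replicate 2 is often the furthest from them.

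Contractile and actin genes, which build and regulate stress fibers, rose as a group. All 31 members tested passed higher (21.4% of all genes did), 19 of them past the fold threshold, with a median log2-fold change of 1.13 against −0.02 over all genes. The median was 1.01 in si*Wdr5*, 1.49 in si*Brca1* and 0.85 in si*Bard1*. *Acta2*, the smooth muscle actin of activated fibroblasts, stood at 671 and 832 CPM in nt, 2397 and 2505 in si*Wdr5*, 3503 and 4689 in si*Brca1* and 2269.5 and 1767 in si*Bard1* (log2-fold change 1.86, SE 0.14, adjusted p = 1.13e-06). *Myh11*, smooth muscle myosin heavy chain, rose from 96.3 and 113 CPM to between 299 and 732 CPM, with si*Wdr5* the lowest of the knockdowns. The summed level of the list was 8751 and 10249 CPM in nt and 15038 to 29814 CPM in the knockdown libraries, so the groups did not overlap.

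The promoters of this group were searched because its members moved together, with RefSeq start sites on GRCm38.p6 and windows from 250 bases before to 50 after the start. The *Acta1* window is shown as the member with the largest rise, with its match to the CArG box, the binding letters of serum response factor (SRF), in capitals.
*Acta1*, chr8:123894726-123895025 (GRCm38.p6, minus strand): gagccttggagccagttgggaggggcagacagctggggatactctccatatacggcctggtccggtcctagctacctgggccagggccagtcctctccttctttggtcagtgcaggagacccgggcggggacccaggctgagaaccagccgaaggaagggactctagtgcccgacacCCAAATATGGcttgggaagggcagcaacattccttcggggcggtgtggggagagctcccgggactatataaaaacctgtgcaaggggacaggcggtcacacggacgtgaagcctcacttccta
A CArG box on either strand was found in 16.7% of the 30 windows of 26 contractile genes and in 1.33% of the 13433 windows of all 10428 tested genes with a window. The letters GGAATG, read by TEAD factors, were in 43.3% and 12.3% of windows. AP-1 letters (TGANTCA) were in 13.3% and 5.20%. These shares describe the sequence alone, were not tested, and rest on 10428 of 14028 tested genes.

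Signaling pathways known to act on fibroblasts were counted next. In the TGF-β pathway 16 of 21 members passed higher and none lower (median 0.57). The ligand *Tgfb3* stood at 61.3 and 70.5 CPM in nt, 186 and 199.9 in si*Wdr5*, 272 and 353 in si*Brca1* and 237 and 196 in si*Bard1* (log2-fold change 1.83). Every knockdown library lay above both nt libraries. The activin subunit *Inhba* rose by 1.65 log2 units and *Ltbp2*, of the latent TGF-β binding protein family, by 1.40. In the BMP pathway 19 of 27 members passed higher and none lower (median 0.61), and these included the BMP antagonist *Nog* (1.16), the receptor *Bmpr1b* (1.28) and the inhibitory *Smad6* (1.04).

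Of YAP and TAZ pathway members and targets, 19 of 23 passed higher and 1, the transcription factor *Tead4* (−0.30), lower. *Ankrd1*, a muscle ankyrin repeat protein, stood at 15.9 and 24.1 CPM in nt, 46.9 and 50.6 in si*Wdr5*, 119 and 158 in si*Brca1* and 82.8 and 77.6 in si*Bard1*. *F3*, tissue factor, rose by 1.77 and *Cyr61* by 1.20. AP-1 and other immediate early genes, counted as 1 list, passed higher in 12 of 22 cases, led by *Klf2* (1.10) and *Ier3* (1.05). Of the insulin-like growth factor axis 8 of 13 members passed higher, with the binding protein *Igfbp7* at 1.39. Of 23 FGF pathway genes 6 passed higher and 5 lower, shares near the 21.4% and 20.4% of all genes (median 0.01). Among them were the ligands *Fgf7* (1.26) and *Fgf16* (−1.33), and with either nt library left out 2 were lower. Wnt pathway genes passed higher in 12 and lower in 3 of 31, and the 3 were the transcription factors *Sp5* (−1.49) and *Lef1* (−1.01) and the receptor *Fzd5* (−0.48).

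Extracellular matrix genes passed higher more often than lower in each class examined, with 1 or more members lower in each. Of collagens 14 of 23 passed higher and 1, *Col5a3* (−0.45), lower, and without nt replicate 1 the count that passed higher was 8. Of matrix glycoproteins and proteoglycans 22 of 37 passed higher and 1, elastin (*Eln*, −0.87), lower. Of collagen-processing and crosslinking enzymes 16 of 22 passed higher and 1, *Pcolce2* (−0.32), lower. Integrin and laminin genes passed higher in 16 of 26 cases and lower in 3 (*Lama1* −0.83, *Itgb3* −0.77 and *Itgb4* −0.37), and matrix proteases and their inhibitors in 24 of 31 with 1, *Mmp3* (−0.87), lower.

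Among these, *Thbs1*, the matricellular thrombospondin 1, was the most abundant, at 2684 and 3088 CPM in nt, 8900.5 and 9163 in si*Wdr5*, 10283 and 12273 in si*Brca1* and 6381 and 5105 in si*Bard1* (log2-fold change 1.53, SE 0.15, adjusted p = 9.71e-06). *Lox*, the lysyl oxidase that crosslinks collagen, stood at 104 and 120.3 CPM in nt and at 206 to 321 CPM in the knockdowns (log2-fold change 1.29). *Itga5*, the fibronectin receptor subunit, rose by 1.5, *Timp3*, a matrix-bound protease inhibitor, by 1.46, and *Col8a1* by 1.42. For each of these 5 genes every knockdown library lay above both nt libraries.

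Genes of fibroblast identity moved the same way in part. Mesenchymal transcription factors passed higher in 15 of 27 cases, with *Msx2* at 1.38, and lower in 3, with *Foxd1* at −1.27, *Meox2* at −0.87 and *Nfib* at −0.25. Of fibroblast surface markers 14 of 21 passed higher, led by *Ly6c1* (1.41) and *Ly6a* (1.20), and 2, *Dpp4* (−1.01) and *Cd34* (−0.60), lower. Without nt replicate 1 this count of 14 was 9. Of *Hox* genes 9 of 33 passed higher, a share near the 21.4% of all genes, led by *Hoxc13* (1.09), and *Hoxd13* (−0.39) lower, and without nt replicate 2 the 9 were 5.

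The cell cycle program fell. All 45 DNA replication genes tested passed lower (20.4% of all genes did), with a median log2-fold change of −0.83. *Mcm10*, which helps activate the replicative helicase, stood at 72.9 and 79.8 CPM in nt, 34.7 and 42.0 in si*Wdr5*, 37.8 and 16.6 in si*Brca1* and 51.0 and 47.3 in si*Bard1* (log2-fold change −1.08, SE 0.21, adjusted p = 0.00112). *Gmnn*, the licensing inhibitor geminin, fell by 1.03 log2 units and *Cdc7*, a kinase that fires origins, by 1.03. *Fen1*, the flap endonuclease, fell by 1.04, but 84.2% of its exon bases overlap genes on the opposite strand. Of mitotic genes 44 of 45 passed lower (median −0.77), with *Anln*, which encodes the contractile ring protein anillin, the exception.

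Single mitotic genes differed between and within knockdowns. *Ttk*, a kinase of the spindle checkpoint, stood at 32.1 and 26.9 CPM in nt, 13.6 and 15.7 in si*Wdr5*, 12.3 and 6.54 in si*Brca1* and 21.1 and 25.1 in si*Bard1* (log2-fold change −1.02, SE 0.19, adjusted p = 0.000784). *Bub1b*, a kinase-like checkpoint protein, stood at 109.6 and 115 CPM in nt, 59.5 and 60.1 in si*Wdr5*, 54.2 and 26.2 in si*Brca1* and 79.3 and 73.4 in si*Bard1*. *Mybl2*, a transcription factor of late cell cycle genes, fell by 1.21 and *Nusap1*, a spindle protein, by 1.03. When the 6 knockdown libraries were treated as 1 group, so that differences between knockdowns counted as error, 6 of 45 mitotic and 19 of 45 replication genes passed lower.

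Replication-dependent histone genes, whose transcripts are made in S phase and lack a poly(A) tail, fell further. Of 40 tested, 39 passed lower, 35 of them past the fold threshold, with a median of −1.17, and 1, *Hist3h2a* (0.70), passed higher. *Hist1h3g* stood at 103 and 75.8 CPM in nt, 39.8 and 30.7 in si*Wdr5*, 39.2 and 14.8 in si*Brca1* and 60.8 and 37.3 in si*Bard1* (log2-fold change −1.37, SE 0.27, adjusted p = 0.00139). The summed level of the 40 genes was 6541 and 5601 CPM in nt and 1567 to 4188 CPM in the knockdown libraries. Histone genes are near-identical copies, so reads may have been split among them and the sum is the safer measure.

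Promoter windows of mitotic and histone genes are shown for the members with clear matches, with capitals for the CCAAT box (CCAAT, or ATTGG on the other strand) and the cell cycle homology region (CHR; TTTGAA, or TTCAAA on the other strand), letters known from genes with peak expression late in the cell cycle.
*Ttk*, chr9:83834439-83834738 (GRCm38.p6, plus strand): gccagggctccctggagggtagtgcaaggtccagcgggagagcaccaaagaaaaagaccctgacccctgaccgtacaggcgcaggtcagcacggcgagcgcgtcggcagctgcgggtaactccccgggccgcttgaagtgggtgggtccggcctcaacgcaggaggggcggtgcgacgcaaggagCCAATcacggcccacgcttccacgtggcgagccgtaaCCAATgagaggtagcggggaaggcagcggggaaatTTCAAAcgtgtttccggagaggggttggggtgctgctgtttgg
*Bub1b*, chr2:118597961-118598260 (GRCm38.p6, plus strand): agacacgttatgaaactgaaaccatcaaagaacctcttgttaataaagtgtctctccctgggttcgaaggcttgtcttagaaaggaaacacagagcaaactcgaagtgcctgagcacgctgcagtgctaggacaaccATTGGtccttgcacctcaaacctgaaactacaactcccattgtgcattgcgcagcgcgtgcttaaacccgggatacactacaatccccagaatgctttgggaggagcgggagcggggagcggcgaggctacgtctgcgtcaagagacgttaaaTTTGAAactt
*Hist1h3g*, chr13:23535168-23535467 (GRCm38.p6, plus strand): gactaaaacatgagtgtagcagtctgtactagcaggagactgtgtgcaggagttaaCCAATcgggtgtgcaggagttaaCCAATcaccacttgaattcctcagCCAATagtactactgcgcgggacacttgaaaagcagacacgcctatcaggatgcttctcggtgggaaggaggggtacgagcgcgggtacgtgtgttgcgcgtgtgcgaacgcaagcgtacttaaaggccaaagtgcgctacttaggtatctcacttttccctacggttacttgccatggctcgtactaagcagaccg
The *Hist1h3g* window shown has CCAAT boxes but no CHR letters. CHR letters were in 72.5% of the 40 windows of 37 mitotic genes, 44.7% of the 38 windows of 37 histone genes and 12% of all 13433 windows. CCAAT was in 75.0%, 81.6% and 37.7%. The E2F letters TTTCCCGC, TTTGGCGC, TTTCGCGC or TTTGCCGC were in 34.9% of the 43 windows of 36 replication genes, 7.50% of mitotic windows and 3.92% of all windows. The contractile windows held CHR letters in 6.67% and E2F letters in 6.67% of cases. As above, these are descriptions of sequence with no test.

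**Figure D3:**
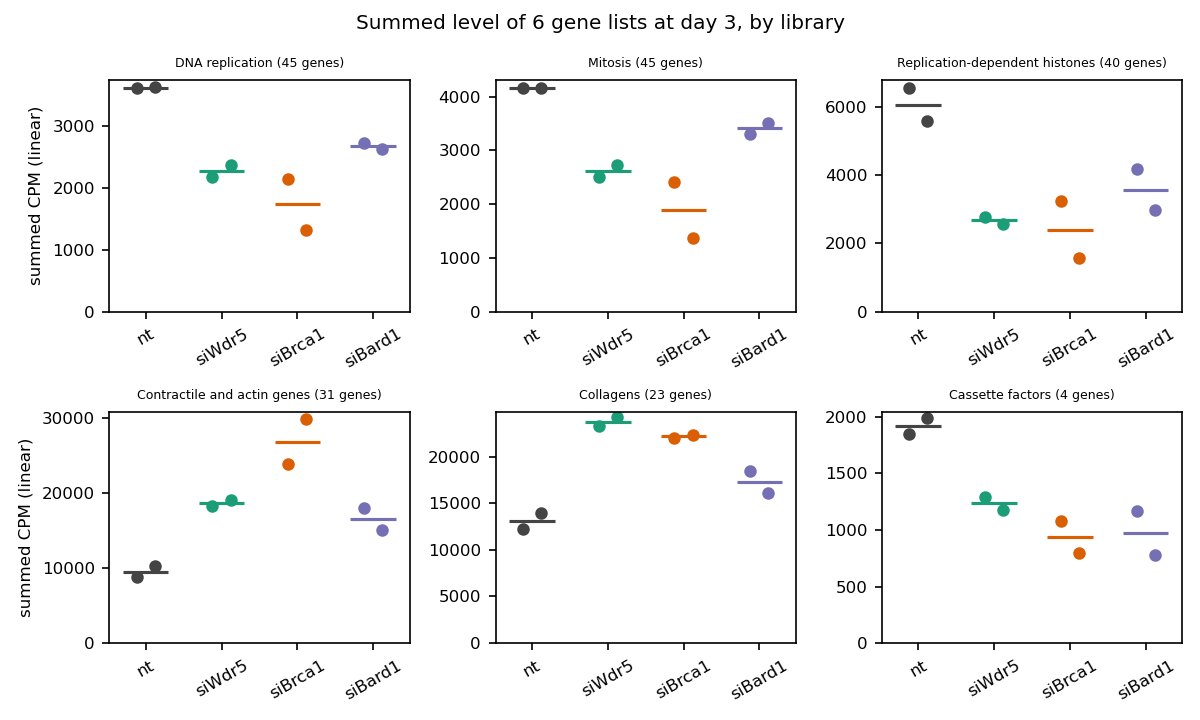
Summed CPM (linear axis from 0) of the tested members of 6 gene lists in each day 3 library, with points for the 2 libraries of a group and a line at their mean. In every panel the nt libraries lie apart from all knockdown libraries, above them for replication, mitosis, histones and cassette factors and below them for contractile genes and collagens.

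DNA repair genes, the pathway in which BRCA1 and BARD1 themselves act, passed lower far more often than higher. Of 32 homologous recombination genes 24 passed lower and 1, the nuclease subunit *Mus81* (0.29), higher, with a median of −0.55. Its nuclease partner *Eme1* stood at 14.1 and 14.4 CPM in nt, 6.85 and 6.37 in si*Wdr5*, 6.41 and 2.95 in si*Brca1* and 9.32 and 8.97 in si*Bard1* (log2-fold change −1.15, SE 0.22, adjusted p = 0.00105). The end-resection nuclease *Dna2* fell by 1.09. Of 16 Fanconi anemia genes 12 passed lower and of 18 damage checkpoint genes 13, including the checkpoint kinase *Chek1* (−1.06).

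These repair counts depended on the nt libraries. Without nt replicate 1 they were 12 of 32, 5 of 16 and 4 of 18, and without nt replicate 2 they were 14, 6 and 6, while the medians lay between −0.42 and −0.62. Of 13 E2F and pocket protein genes 8 passed lower, among them *E2f2* (−0.99) and *E2f8* (−0.96), and *E2f6* (0.32) higher, with 4 and 3 lower without nt replicate 1 and replicate 2. Of CDK inhibitors and D cyclins 4 passed higher and 4 lower of 15, shares not far from the 21.4% and 20.4% of all genes. Without nt replicate 1 the counts were 1 and 1. The 1 member of this list past the fold threshold was lower (−1.01). *Cdkn2b*, which encodes the CDK4/6 inhibitor p15 and is induced by TGF-β, stood at 44.2 CPM in both nt libraries and at 56.8 to 105 CPM in the knockdowns (log2-fold change 0.88, SE 0.09, adjusted p = 1.27e-05), whereas *Cdkn1a*, which encodes p21, rose by 0.38. Of 23 p53 targets 10 passed higher and none lower, with a median of 0.16 and the largest change in *Gdf15* (1.08).

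Chromatin genes gave mixed counts. *Uhrf1*, which brings DNA methyltransferase 1 to newly copied DNA, fell by 1.0 and *Dnmt1* by 0.67. Of 15 DNA methylation enzymes 7 passed lower and *Dnmt3l* higher. In the list of H3K4 methyltransferase complex genes, the complexes of which WDR5 is a subunit, 4 of 16 passed lower, a share near the 20.4% of all genes, and *Hcfc2* (0.45) higher. *Dpy30*, a core subunit, stood at 99.8 and 93.6 CPM in nt, 44.2 and 48.6 in si*Wdr5*, 43.4 and 26.2 in si*Brca1* and 68.5 and 54.0 in si*Bard1* (log2-fold change −1.08, SE 0.15, adjusted p = 0.000123), and was the member of the list past the fold threshold. Without nt replicate 1 or replicate 2 the 4 were 1 and 2. Of 12 PRC2 genes 5 passed lower, led by *Epop* (−1.14), and without nt replicate 1 or replicate 2 the 5 were 1 and 3.

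Genes of ribosome production had smaller changes. Of 40 ribosome biogenesis genes 36 passed lower, with a median of −0.48, and *Rrp9*, a U3 small nucleolar RNA-binding protein, had the largest change (−0.86). Of 45 cytosolic ribosomal protein genes 24 passed lower and none higher (median −0.25), led by *Rpl27* (−0.54). This second count was 9 without nt replicate 1 and 3 without nt replicate 2, and the median of the list was −0.49 in si*Wdr5* but −0.09 in si*Brca1*.

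Ribosomal and small noncoding transcripts had the largest median change of any list, with a wide spread between libraries of 1 group. Of 11 tested, 8 passed lower, with a median of −2.76. *CT010467.1*, a 45S ribosomal RNA gene model on chromosome 17, stood at 3248 and 1385 CPM in nt, 6.54 and 598 in si*Wdr5*, 458 and 87.1 in si*Brca1* and 5.39 and 98.5 in si*Bard1* (log2-fold change −5.01, SE 1.27, adjusted p = 0.0063). On the log2 scale, the 2 si*Wdr5* libraries differed by more than the lower nt library differed from 4 of the 6 knockdown libraries. Ribosomal RNA was removed from all libraries before sequencing, and the part of that removal in these values was not tested. The small cytoplasmic RNA *Rny3* (2.10) was the member that passed higher, and without nt replicate 1 the 8 lower were 5.

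The introduced reprogramming factors were lower in the knockdowns. *Sox2* stood at 324 and 350.4 CPM in nt, 231 and 184 in si*Wdr5*, 186 and 121 in si*Brca1* and 199 and 122 in si*Bard1* (log2-fold change −0.996, SE 0.17, adjusted p = 0.000553). *Pou5f1* fell by 0.90, *Myc* by 0.88 and *Klf4* by 0.86, and all 4 passed, with every knockdown library below both nt libraries. Cassette and endogenous transcripts are counted together. In bulk samples, fewer cells of a kind and less RNA per cell cannot be told apart, here or for the groups above.

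Pluripotency and epithelial genes were mostly low at day 3, and the members that passed fell more often than they rose. Of 27 pluripotency genes 11 passed lower and 3 higher (median −0.53). *Sall4*, an early marker of colony-forming cells, stood at 8.38 and 6.87 CPM in nt, 1.63 and 1.20 in si*Wdr5*, 3.23 and 2.74 in si*Brca1* and 3.78 and 2.84 in si*Bard1* (log2-fold change −1.67, SE 0.21, adjusted p = 6.25e-05). The nuclear receptors *Nr0b1* (−1.79) and *Nr5a2* (−1.69) and the RNA-binding *Lin28b* (−1.67) fell as well. The 3 that rose, *Dnmt3l* (1.41), *Klf2* (1.10) and *Tbx3* (0.81), are in part shared with other cell types, and *Dnmt3l*, a cofactor of DNA methyltransferases in germ cells, had 2 and 10 reads in nt and 11 to 24 in the knockdown libraries.

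Of 33 epithelial junction and identity genes 11 passed lower and 4 higher (median −0.42). *Cdh1*, E-cadherin, stood at 41.5 and 29.4 CPM in nt, 12.6 and 12.7 in si*Wdr5*, 16 and 10.1 in si*Brca1* and 26.5 and 24.9 in si*Bard1* (log2-fold change −1.12, SE 0.17, adjusted p = 0.000183). *Epcam* was less clearly separated, at 11.1 and 5.90 CPM in nt, about 2 CPM in si*Wdr5*, 4.41 and 1.97 in si*Brca1* and 7.29 and 5.28 in si*Bard1*, and *Marveld3* (−1.54) and *Spint1* (−1.35) fell further. The 4 that rose were *F11r* (0.83), *Jup* (0.63), *Cdh3* (0.56) and *Krt19* (0.52). Without nt replicate 1, the count that passed lower was 4 of 33 for the epithelial and 6 of 27 for the pluripotency genes, and without nt replicate 2 the latter was also 6.

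Of 23 chemokine, interleukin and related genes, a list that holds ligands and receptors, 13 passed higher and none lower (median 0.62). *Csf1*, the macrophage growth factor, stood at 214 and 261 CPM in nt, 643 and 663 in si*Wdr5*, 689 and 959 in si*Brca1* and 519 and 459 in si*Bard1* (log2-fold change 1.43, SE 0.12, adjusted p = 2.76e-06). *Il6* rose from 1.26 and 1.16 CPM in nt to between 3.36 and 4.85 CPM (1.78). Of 23 interferon-stimulated genes 7 passed higher, a share not far from the 21.4% of all genes, and *Bst2* (−0.66) lower, and without nt replicate 2 the 7 were 2. *Gbp2*, a guanylate-binding protein, had similar changes in each knockdown (1.07, 1.12 and 1.06 in si*Wdr5*, si*Brca1* and si*Bard1*).

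Metabolic lists differed from each other in direction. Of 24 cholesterol genes 2 passed higher and 4 lower, and of 28 glycolysis and hypoxia genes 6 and 6. These shares were near or below the 21.4% and 20.4% of all genes. Of 29 ATF4 stress and serine one-carbon genes 3 passed higher and 11 lower. Without si*Brca1* replicate 1 the ATF4 count was 8 higher and 11 lower, and without si*Brca1* replicate 2 it was 4 and 15. The median of this list was −0.38 in si*Wdr5*, 0.09 in si*Brca1* and −0.31 in si*Bard1*. Of 22 adipogenic regulators and lipid droplet genes 10 passed higher and 2 lower, and without nt replicate 1 or replicate 2 the 10 were 6 and 5. *Fabp4*, a fatty acid binding protein of adipocytes, stood at 1.72 and 2.53 CPM in nt and at 2.79 to 6.63 CPM in 5 knockdown libraries, with 21.4 CPM in si*Brca1* replicate 2. Of 7 mitochondrially encoded genes 2 passed higher, *mt-Nd5* (0.38) and *mt-Nd4* (0.35), and neither passed after quantile normalization.

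Cell type markers were read beside these groups. The 10 fibroblast markers were all present and summed to 7761 and 8753 CPM in nt and 9664 to 14255 CPM in the knockdown libraries, with 6 passing higher, or 3 without nt replicate 1. The presence of all 10 fits the labelled cell type. Macrophage markers were low, at 6.42 and 6.67 CPM in nt and 7.44 to 15.0 CPM in the knockdowns over the 5 of 10 markers in the table, with both tested members passing higher, and *Ptprc*, *Aif1*, *C1qa* and *Itgam* were not among them. Adipocyte markers summed to 55.6 and 58.0 CPM in nt and 57.5 to 117 CPM in the knockdowns, the highest value being that of si*Brca1* replicate 2, and 3 of the 4 tested passed higher (2 with either nt library left out). Chondrocyte markers, 3 of 5 of which passed higher, summed to 30.3 and 37.1 against 58.0 to 103 CPM. The summed levels of endothelial, keratinocyte, skeletal muscle, and Schwann cell and neuron markers overlapped between nt and knockdown libraries, and *Myod1* and *Myog* were not in the table. Of the 4 Schwann cell and neuron markers tested 2 passed lower, and none did with either nt library left out. What part a change in cell makeup has in the gene groups above was not tested.

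**Figure D4:**
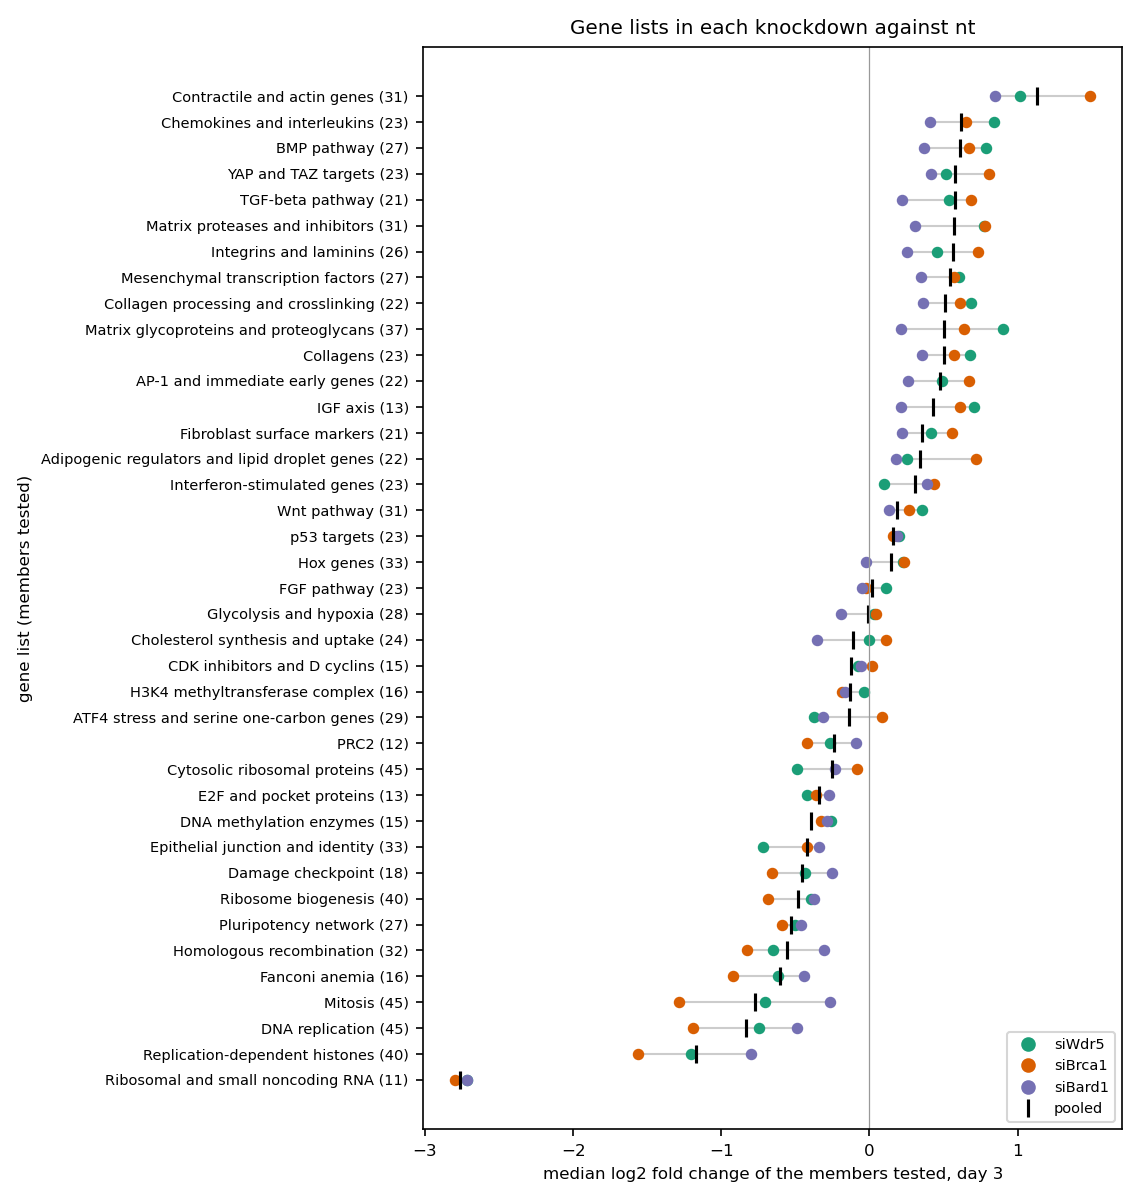
Median log2-fold change against nt of the tested members of each gene list with at least 10 such members, by knockdown (colored points) and pooled (black tick). Contractile genes lie furthest right and histones and noncoding RNA furthest left, and si*Bard1* has the change nearest 0 for most of the lists that moved.

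The size of the common response differed between the knockdowns. A moderated F test between the 3 knockdown groups, which does not contrast them with nt, passed for 3916 genes (27.9%). It passed for 266 of the 429 genes that rose (62.0%) and 104 of the 311 that fell (33.4%). Over the genes that rose, the median log2-fold change was 1.27 in si*Wdr5*, 1.54 in si*Brca1* and 0.99 in si*Bard1*, and over those that fell it was −1.22, −1.59 and −0.88. By list, the test passed for 39 of 45 mitotic genes, 31 of 45 replication genes and 25 of 31 contractile genes. It passed for 4 of 40 histone genes and none of the 4 cassette factors. These low counts do not show an even change. The histone median was −1.20 in si*Wdr5*, −1.56 in si*Brca1* and −0.80 in si*Bard1*, and the cassette median −0.62, −1.06 and −1.03. The F test count was sensitive to single libraries: it was 1590 without si*Bard1* replicate 2, 1746 and 2002 without si*Wdr5* replicate 1 and replicate 2, and 6266 without si*Brca1* replicate 1.

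The widest ranges among called genes belonged to immune and low-expressed genes. *Ccl8*, a monocyte chemokine, stood at 0.598 and 0.593 CPM in nt, 6.23 and 9.03 in si*Wdr5*, 1.61 and 1.40 in si*Brca1* and 0.907 and 0.916 in si*Bard1* (F test adjusted p = 0.000119). *Selp*, the adhesion receptor P-selectin, stood at 0.664 and 0.650 CPM in nt, 9.03 and 7.64 in si*Wdr5*, 3.53 and 4.99 in si*Brca1* and 1.68 and 1.23 in si*Bard1* (F test adjusted p = 0.000296). Both were highest in si*Wdr5* and lowest among the knockdowns in si*Bard1*. *Ifit1*, an interferon-induced RNA-binding protein, had the opposite order, with 6 and 7 reads in si*Wdr5*, 40 and 31 in si*Brca1* and 49 and 53 in si*Bard1* against 16 and 5 in nt. *Tns4* and *Prr9* were called in the average although their si*Bard1* changes were −0.66 and −0.19, on at most 39 reads in any library.

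The genes that the knockdowns changed at day 3 were then examined at day 6, in 8 libraries with their own nt controls. The pooled change at day 6 was called for 108 genes (0.77%) higher and 21 (0.15%) lower. Leaving out either nt day 6 library left no call at all in limma, with 2086 and 1703 genes at unadjusted p < 0.05, and leaving out si*Wdr5* day 6 replicate 2 left 15, so single day 6 calls rest on thin ground. Of the 429 genes that rose at day 3, 357 had a positive change at day 6 (median 0.56), 106 passed higher, 52 past the fold threshold, and none passed lower. Of the 311 that fell, 261 had a negative change (median −0.30), 1, the centromere protein *Cenpv* (−0.86), passed lower and 1, *C2cd4a* (1.32), passed higher. The median day 6 change over all genes was 0.04.

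Of the contractile genes 17 of 31 passed higher at day 6, against all 31 at day 3, and the median change was 0.62 against 1.13. Among genes named because they were called on both days, *Actg2* changed by 1.99 at day 3 and 1.95 at day 6, and *Cnn1*, the smooth muscle protein calponin, by 1.84 and 1.94. With *Selp* (2.49 and 2.37) and the platelet chemokine *Ppbp* (2.17 and 1.71), these were among the genes with the largest rise on both days. No gene was called lower on both days.

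The cell cycle lists did not keep their fall relative to nt, and the nt level itself was lower at day 6. The median change of mitotic genes was −0.77 at day 3 and 0.12 at day 6, that of replication genes −0.83 and 0.03, and that of ribosome biogenesis genes −0.48 and 0.10. No mitotic gene passed at day 6 in either direction, and 1 replication gene passed higher. The summed level of the mitotic list in nt was 4170 and 4168 CPM at day 3 and 2440 and 2663 CPM at day 6. It went from 2512 and 2728 to 2786 and 2450 CPM in si*Wdr5*, and from 3313 and 3513 to 3076 and 3020 in si*Bard1*. In si*Brca1* it went from 2416 and 1364 to 2498 and 2929 CPM. The difference between the days passed for 37 of 45 mitotic, 38 of 45 replication and 29 of 40 ribosome biogenesis genes, but for 3 of 31 contractile and 3 of 40 histone genes. The histone median was −1.17 at day 3 and −0.33 at day 6, when none of the 40 passed lower.

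Over all genes this test of the difference passed for 1916 (13.7%). It passed for 167 of the 429 genes that rose at day 3 (38.9%), all with a smaller or negative change at day 6, and for 105 of the 311 that fell (33.8%), all moving toward 0 or above it. With 1 nt day 3 library fewer, the count of 1916 was 6 without replicate 1 and 20 without replicate 2, so it rests on both. The day 3 average enters both the choice of these genes and the difference, so that a return toward 0 is partly fixed by the choice.

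**Figure D5:**
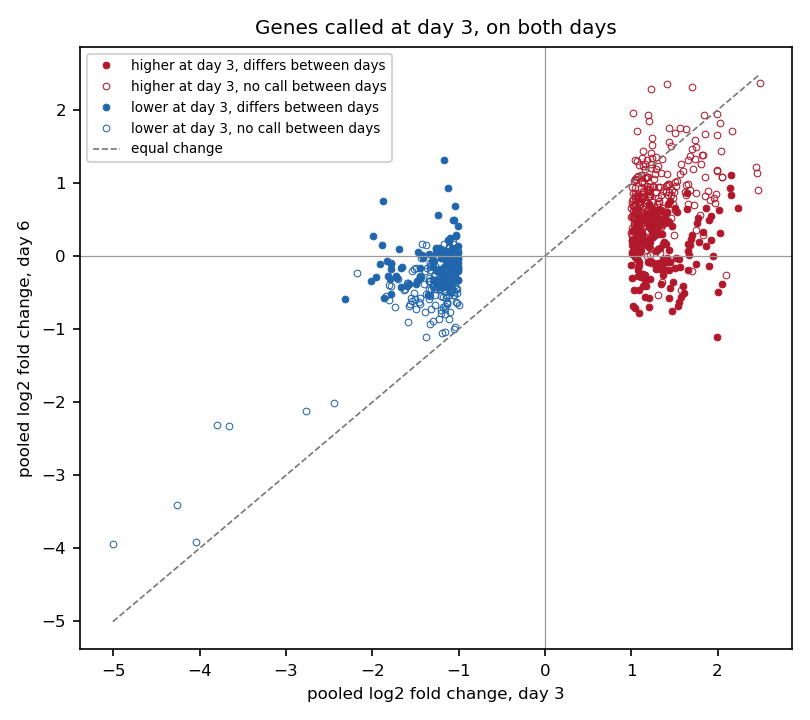
Pooled log2-fold change at day 6 against that at day 3 for the 740 genes called at day 3; filled points passed the test of the difference between days, and the dashed line marks equal change. Genes that rose at day 3 mostly stay above 0 at day 6 (357 of 429, median 0.56). Those that fell mostly stay below 0 (261 of 311), with a median of −0.30.

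The nt cells themselves changed from day 3 to day 6, and this change shares the nt day 3 libraries with the pooled comparison, so values are only set side by side. In nt the median change from day 3 to day 6 was −1.03 for contractile genes, −0.79 for mitotic genes, −0.64 for replication genes, 2.38 for epithelial genes and 1.28 for pluripotency genes. The pooled day 3 medians of the same lists were 1.13, −0.77, −0.83, −0.42 and −0.53. *Acta2*, for example, went from a mean of 752 CPM at day 3 to 117 ± 20.2 CPM (SD, n = 2) at day 6 in nt, and *Cdh1* from 35.4 to 138 ± 29.5 CPM.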

How the data were processed

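Cells were sequenced in 16 bulk libraries, of which the 8 day 3 libraries were compared here and the 8 day 6 libraries used as a second time point. The authors depleted ribosomal RNA, sequenced paired-end, aligned to mm10 with STAR 2.5.2b and computed log-CPM with edgeR 3.20.9. The single table the authors deposited gives log2 CPM and covers 18990 genes, and the read counter, annotation, strand setting and low-count filter are not given in the sources used here. Values below 1000 CPM turned back into whole reads in 100% of cases (tolerance 0.05), which gave the library sizes. Intervals of counting error are not given, and 3 reads was taken as the floor.

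The 14028 genes whose log2 CPM averaged 0 or more over all libraries were tested. Group means were estimated from the log2 values by limma (version 3.58.1, R 4.3.3) with a variance trend. The main contrast was the average of the 3 knockdown means minus nt, with the 8 libraries of the day in 1 model. The study tested counts. Here the deposited log2 values were tested, with limma-voom on the recovered reads as an alternative. P-values are two-sided, Benjamini-Hochberg adjusted over all genes tested, and measure the spread between 2 experiments per group. Called genes passed adjusted p < 0.05 with a log2-fold change beyond 1, and list members were counted at adjusted p < 0.05. Differences between knockdowns and between days were tested as described in the text. Steps were tested on simulated data.

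The gene lists, their members and the rules for named genes were chosen with earlier results of these data known, so they are descriptions, and no list was tested as a set. Named genes were the siRNA targets, the 12 rises and 12 falls with the largest change in the weakest knockdown (called, with separated libraries and without unnamed models), up to 4 members per list that passed, 5 genes with the widest range between knockdowns and 5 called on both days, and some of these genes are not reported here. The few members that moved against the rest of their list, the exceptions *Anln*, *C2cd4a* and *Cenpv* and the threshold cases *Rarres1*, *Uchl4* and *Slc16a9* fall outside these rules and were chosen after their values were seen. Overlaps and coordinates come from GENCODE vM21 (mm10), promoters from RefSeq on GRCm38.p6, and siRNA sequences from the study's supplementary tables. Among the symbols, 7 are each used for a pair of genes. Replicate numbers did not pair the groups (mean correlation of replicate differences 0.02 over 6 pairs of groups).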

Additional observations from a re-analysis of the deposited data

Results flagged for a closer look

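Of the 740 genes called in the pooled day 3 comparison, 370 differed between the 3 knockdowns by the moderated F test (adjusted p < 0.05, limma), and 272 had a pooled change that differed between day 6 and day 3 in the model of both days. Without nt day 3 replicate 1 or replicate 2, the second test passed for only 6 or 20 of all genes, against 1916.

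The range of the 3 single knockdown log2-fold changes was widest for *Tns4* (3.27), which encodes a tensin, followed by *Ccl8* (3.04), *Prr9* (2.66), a proline-rich protein, *Ifit1* (2.54) and *Selp* (2.53). *Ccl8*, *Prr9*, *Selp* and *Tns4* were highest in si*Wdr5* and lowest in si*Bard1*, and *Ifit1* was highest in si*Bard1*. Of the 24 genes with the largest change in the weakest knockdown at day 3, 13 differed between the days, 5 that rose and 8 that fell. With 2 libraries per group, no group could be searched for single outlying samples.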

How the results depend on the processing

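Of the 740 genes called at day 3, no gene changed sign under any of the alternatives tried. The count stayed within 1.5 times of 740 except at 460 when the filter was raised to an average log2 CPM of 2 (280 of the 740 were then not tested), 415 with a pseudocount of 1 CPM, 1119 without si*Bard1* and 5866 at adjusted p alone. Leaving out 1 library gave 598 to 916. The count of genes that differed between knockdowns (3916) was 2270 with no filter and 1551 with no variance trend, and 1590 to 6266 with 1 library left out. The day 6 count (129) was 2 with no trend and 0 to 217 with 1 library left out. The count that differed between days (1916) was 1014 with no trend and 6 to 2821 with 1 library left out. It split into 1282 genes with a higher and 634 with a lower change at day 6, but into 768 and 959 with library medians set equal and 836 and 793 after quantile normalization. The causes of these shifts were not tested.

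Under the other 2 scalings the median changed sign in 3 of 50 lists: the FGF pathway (−0.0117) and mitochondrially encoded genes (−0.124) after quantile normalization, and glycolysis and hypoxia (0.0269) with library medians set equal. With 1 library left out, the medians of the FGF, glycolysis, endothelial and keratinocyte lists, all near 0, also changed sign. Of 189 named genes none reversed under the scalings. With the 6 knockdown libraries as 1 group, fewer list members passed. The counts lower were 14 for ribosome biogenesis, 1 for cytosolic ribosomal proteins (24 before), 9 for homologous recombination, 5 for Fanconi anemia, 3 for damage checkpoint, 5 each for pluripotency and epithelial genes, 4 for E2F genes and 1 for PRC2. The counts higher were 1 each for adipogenic (10 before) and interferon genes (7 before), 3 for the IGF axis, 4 for *Hox*, 6 each for Wnt and p53, 8 each for TGF-β, integrin and fibroblast surface genes, 13 for proteases and 7 for chemokines. On recovered reads, limma-voom called 793 genes, 739 of them among the 740.

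With the replicate number as a replicate block, 742 genes were called, 739 of them shared with the 740, and 166 were called at day 6. The numbers did not pair the samples, since same-numbered replicates had correlations of −0.09 to 0.07. Depth limits genes near the floor of 3 reads, such as *Nkx1-2*.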
